A study of Mus musculus with 2 samples.

Results

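The Meg3-high cells outside the delta-like group were 290 of the 7980 cell barcodes of a mouse small cell lung cancer study, 24 from the vehicle library and 266 from the cisplatin library. They were chosen from the raw matrices in 3 steps. Barcodes with at least 500 detected genes and at most 10% of their counts on mitochondrial genes were kept, which left 7890. The delta-like barcodes, 766 in all, were then set aside: they held 5 or more unique molecular identifiers (UMIs, each counting 1 captured RNA molecule) summed over Hhex, Isl1, Hoxb8, Sfrp5 and Gfra4, of which Hhex and Isl1 are transcription factors of endocrine delta cells. Of the rest, barcodes with 4 or more Meg3 UMIs were called Meg3-high, and they were compared with barcodes of the same library that had no Meg3 UMI and at least 4000 UMIs, called Meg3-0 cells (3082 in the vehicle and 2127 in the cisplatin library). Meg3 and those 5 genes chose the cells, so their values below are a description.

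Each of the 2 libraries came from lung tumours of mice of mixed strain. All mice carried the CGRPCreER/+ driver, which expresses a tamoxifen-inducible Cre in cells that use the CGRP promoter (in the lung, neuroendocrine cells), with floxed alleles that include Rb and P53 and the Rosa26mTmG reporter, which turns cells green once Cre has acted. The vehicle group received saline and the cisplatin group 5 mg per kg of cisplatin, in both cases at 4 day intervals over 2 weeks. One label on library preparation names cisplatin/etoposide for the treated tumours where the other labels name cisplatin only. After enzymatic digestion of the tumours, GFP-expressing live cells were collected by flow cytometry, and 5000 cells of each group were loaded on a 10x Genomics lane, which gave 3726 vehicle and 4254 cisplatin barcodes. The number and age of the animals behind each library are not given in the sources used here. With 1 library per group, a difference between treatments has no replicate check, and treatment, animal and library cannot be told apart. The intervals printed here are exact 95% Poisson or Clopper-Pearson intervals and cover counting error only.

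Meg3 is a long non-coding RNA of the imprinted Dlk1-Dio3 locus, where the maternal chromosome is the one that expresses Meg3, Rian and Mirg and the paternal chromosome expresses the protein-coding genes Dlk1, Rtl1 and Dio3. It is abundant in pituitary and pancreatic islet endocrine cells, it is often silenced in pituitary tumours, and its promoter is known to respond to cyclic AMP through CREB. D-type cyclins, encoded by Ccnd1, Ccnd2 and Ccnd3, bind CDK4 and CDK6, whose best known substrate is the Rb protein, and the Rb gene is a floxed target in these tumours. Small cell lung cancer is a neuroendocrine tumour, whose cells express lineage factors such as Insm1 and cargo of secretory granules such as chromogranins.

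Promoter sequence is shown for 3 genes that were high in these cells, because Meg3 is known as a CREB-responsive gene. They are Meg3 itself, the imprinted gene Nap1l5 and the neuropeptide gene Cartpt, whose vehicle value rested on 1 cell. The 3 shown each had a window with the letters TGACG. Windows of Ndn, Resp18 and Mcoln3, which lacked these letters, are not shown. Each window runs from 250 bases before to 50 bases after the RefSeq start (GRCm38.p6), written 5′ to 3′ on the gene's own strand, and capitals mark every copy of the letters TGACG on either strand. The palindrome TGACGTCA, the cyclic AMP response element that CREB binds, holds that core once on each strand, with the copies overlapping. The Meg3 window lies at chr12:109540746-109541045 on the plus strand, the Nap1l5 window at chr6:58907077-58907376 on the minus strand and the Cartpt window at chr13:99900634-99900933 on the minus strand.
Meg3: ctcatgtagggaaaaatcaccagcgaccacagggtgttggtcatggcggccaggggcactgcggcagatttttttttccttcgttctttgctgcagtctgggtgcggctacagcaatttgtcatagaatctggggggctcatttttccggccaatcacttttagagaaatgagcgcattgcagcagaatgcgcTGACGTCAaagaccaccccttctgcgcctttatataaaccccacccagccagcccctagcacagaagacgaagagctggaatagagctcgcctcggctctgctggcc
Nap1l5: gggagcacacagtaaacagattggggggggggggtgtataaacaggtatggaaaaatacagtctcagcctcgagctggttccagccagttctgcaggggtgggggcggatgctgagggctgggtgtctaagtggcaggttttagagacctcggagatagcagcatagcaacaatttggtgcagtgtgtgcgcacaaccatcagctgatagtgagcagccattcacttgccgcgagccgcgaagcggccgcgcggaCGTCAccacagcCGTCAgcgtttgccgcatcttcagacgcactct
Cartpt: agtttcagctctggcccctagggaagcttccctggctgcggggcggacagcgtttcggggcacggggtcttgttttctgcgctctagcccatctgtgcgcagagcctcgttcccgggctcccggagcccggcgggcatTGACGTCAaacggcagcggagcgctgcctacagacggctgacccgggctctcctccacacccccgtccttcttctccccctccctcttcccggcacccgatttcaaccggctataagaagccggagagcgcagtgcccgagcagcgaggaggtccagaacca

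The Meg3 window held 1 full element and 13 CpG pairs, against a median of 7 CpG pairs over all 32851 promoter windows. The Cartpt window also held 1 full element, and the Nap1l5 window held 2 separate copies of the core and no full element. The full element stood in 588 of all windows (1.79%), and in 2 of 53 windows of the genes that were higher in Meg3-high cells of both libraries. The core stood in 20.8% of all windows, in 47.2% of the windows of those higher genes and in 33.3% of the 105 windows of the genes lower in both. A second Meg3 window at chr12:109545148-109545447 held neither, nor did those of Ndn, Resp18 and Mcoln3. All windows cover 27025 genes and were not limited to the genes measured here, so the 20.8% is not a share of measured genes. A match gives letters in a window and no binding. Ccnd1, Ccnd2 and Osr1 are named without a window.

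Meg3-high cells made up 0.657% of the vehicle barcodes outside the delta-like group (24 of 3654, interval 0.421 to 0.976%) and 7.67% of the cisplatin ones (266 of 3470, 6.80 to 8.60%). The cisplatin tumours thus yielded the larger share of these cells, in a comparison of 1 library with 1 library. The order was the same at equal depth: with barcodes of at least 4000 UMIs thinned to 4000, shallower ones left out (2 vehicle and 71 cisplatin members among them) and a threshold of 2 thinned Meg3 UMIs, the shares were 0.637% and 8.05%. Within members, the median Meg3 count was 12.5 UMIs (range 4 to 45) in vehicle and 8.5 (4 to 78) in cisplatin. Levels are given as CPM, the UMIs of a gene per 1000000 UMIs of the summed cells. Meg3 (GENCODE M21 lincRNA, chr12:109541001-109571726, plus strand) stood at 1897 (1718 to 2089) in vehicle and 1862 (1795 to 1932) in cisplatin members. In delta-like cells it was lower in vehicle, at 1477 (1322 to 1645), and close in cisplatin, at 1930 (1896 to 1964). The total behind each CPM was 218262 UMIs for vehicle members, where 1 UMI is 4.58 CPM, and 1534159 UMIs for cisplatin members, where it is 0.652 CPM, so values of the 24 vehicle members are the coarser ones. Members with 4000 or more UMIs, the depth required of Meg3-0 cells, numbered 22 of 24 and 195 of 266.

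**Figure D1:**
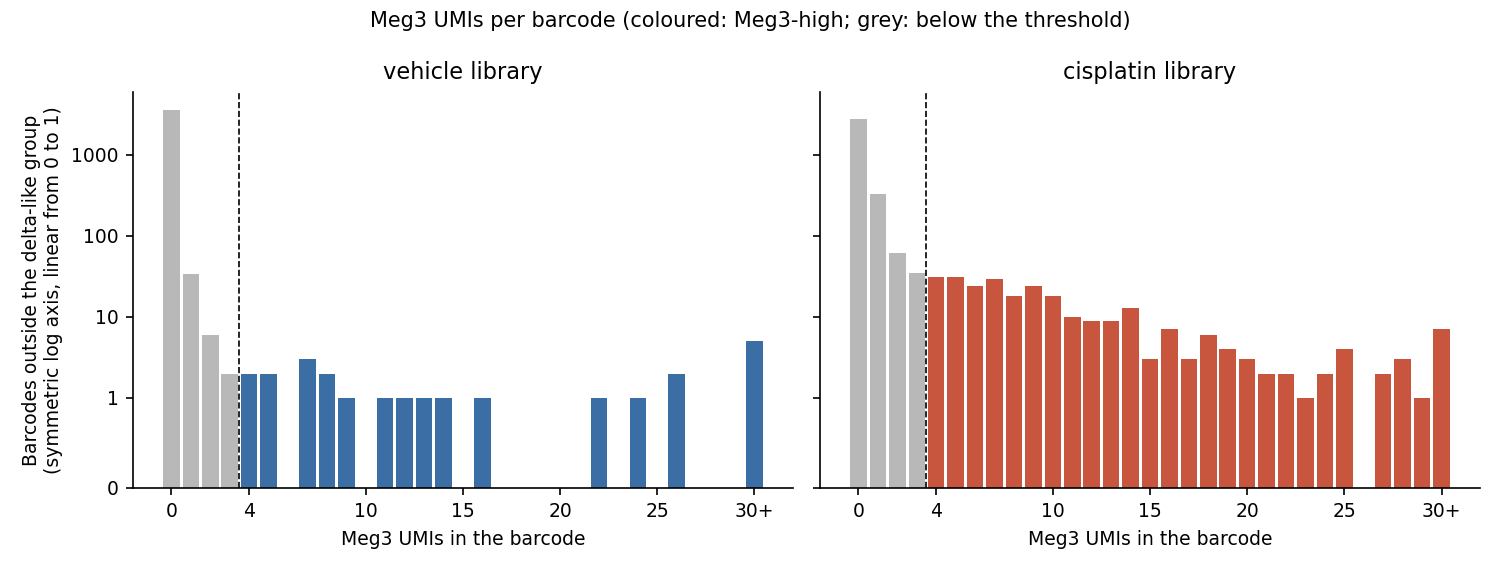
Number of barcodes outside the delta-like group (vertical axis, symmetric log scale) by their number of Meg3 UMIs (horizontal axis), for the vehicle and cisplatin libraries. Coloured bars are the Meg3-high cells and grey bars lie under the threshold of 4. The vehicle library drops from 3588 barcodes at 0 to 2 at 3 UMIs and 2 at 4. The cisplatin library declines from 2780 at 0 through 35 at 3 UMIs to 31 at 4.

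The plot of Meg3 UMIs per barcode shows how the threshold fell. In the vehicle library 34 barcodes had 1 Meg3 UMI, 6 had 2, 2 had 3, 2 had 4 and 2 had 5, while 5 had 30 or more. In the cisplatin library 328 had 1, 61 had 2, 35 had 3, 31 had 4 and 31 had 5, and 7 had 30 or more. In vehicle the barcodes were sparse on both sides of the threshold, with 8 at 2 to 3 UMIs and 4 at 4 to 5, and no gap set the members apart. The cisplatin members were the upper end of a continuous decline. Just outside and just inside the threshold, at 3 and 4 UMIs, the median Meg3 level per barcode was 602 and 774 CPM in vehicle and 584 and 767 CPM in cisplatin. The second threshold cut a continuum too in cisplatin: 163 of the 266 members had no UMI of the 5 delta-like genes, 103 had 1 to 4, with 15 of those at 4, and 12 more barcodes with enough Meg3 were set aside at exactly 5. Of the vehicle members, 23 had none and 1 had 1. Among Meg3-0 cells, 6.49% in vehicle and 36.0% in cisplatin also had 1 to 4 such UMIs.

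The members looked like tumour cells by their neuroendocrine genes. The 12 listed neuroendocrine markers were all detected, and their summed level was 11101 CPM in vehicle members against 6603 in Meg3-0 cells, and 12522 against 8026 in cisplatin. The lineage factor gene Insm1 stood at 550 CPM in members and 515 in Meg3-0 cells of the vehicle library, and at 1047 and 937 in cisplatin. Insm1 was thus under 1.5-fold different in both libraries. Most of the gap in the marker sum was Resp18: the other 11 markers summed to 5580 against 4969 CPM in vehicle and 4941 against 4479 in cisplatin.

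Markers of other cell types were at 0 or low in most lists. In cisplatin, the B cell, macrophage, T and NK cell, Schwann or glial and alveolar type 2 sums were higher in members than in Meg3-0 cells. The Schwann or glial sum was 13.7 against 8.30 CPM in vehicle and 22.2 against 6.17 in cisplatin. The alveolar type 2 sum was 50.4 against 80.6 CPM in vehicle and 96.5 against 48.6 in cisplatin. All 8 pericyte markers were at 0 in members of both libraries. The fibroblast sum was 27.5 CPM in vehicle members, all of it 6 UMIs of Dcn, against 44.7 in Meg3-0 cells, and 7.82 against 21.1 in cisplatin. The macrophage sum was 9.16 against 23.1 CPM in vehicle, where C1qa gave all of the member value, and 52.8 against 24.2 in cisplatin. In cisplatin members 5 of the 8 macrophage markers had UMIs, led by Lyz2 at 28.03 CPM. C1qb, C1qc and Cd14 were at 0 in members of both libraries. The T and NK cell sum was 27.5 against 8.57 and 31.3 against 6.75 CPM, of which Cd3g gave 18.3 and 22.8 in members, while Cd3d, Trac, Nkg7, Klrb1c and Il7r were at 0 (Lyz2, C1qa, Cd3g and, below, Cd74 were singled out after their values were seen). The B cell sum was 18.3 against 18.1 CPM in vehicle, and 302 against 22.0 in cisplatin, where Cd74, an MHC class II chaperone gene that macrophages also express, gave 302 CPM and Cd79b, Ms4a1 and Ighm were at 0. Of the 463 Cd74 UMIs in cisplatin members, 425 were in 1 member, and without it Cd74 stood at 25 CPM (17.7 to 34.3). Of the 329 in cisplatin Meg3-0 cells, 191 were in 1 cell, and without it Cd74 stood at 8.87 CPM (7.45 to 10.5) in place of 21.1. With the top cell of each group left out, Cd74 was thus still higher in members. Secretory club cell markers summed to 206 CPM in vehicle members against 996 in Meg3-0 cells, and to 606 against 599 in cisplatin. A barcode was marked for another cell type if it had a UMI of 3 or more different markers of that type. Only markers found in under 2% of kept barcodes counted. By this rule 1 of the 266 cisplatin members was marked as a macrophage or monocyte (14222 UMIs, 7 of them Meg3), and none of the 24 vehicle members was marked for any other cell type. In the vehicle library 26 kept barcodes were marked as another cell type, and none of them had a Meg3 UMI. In the cisplatin library 6 were marked, and 4 of them had a Meg3 UMI, the 1 member and 3 delta-like barcodes. The libraries shared 23 kept barcode sequences, none of them a member. The part of these other markers in the results was not tested.

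Across genes, the most prominent differences of Meg3-high from Meg3-0 cells were more D-type cyclin, more RNA of the imprinted genes Ndn and Nap1l5, more RNA of the granule gene Resp18, and less mitotic RNA and Crabp1. A gene counted as higher or lower when its CPM plus a pseudocount of 5 differed by at least 1.5-fold, among genes with at least 50 UMIs and a mean of at least 20 CPM. In vehicle, 859 of 7031 genes were higher (12.2%) and 625 lower (8.89%). In cisplatin, 139 of 6327 were higher (2.2%) and 319 lower (5.04%). With TMM factors in place of total UMIs, the vehicle split became 591 higher and 851 lower, because that scaling shifts all vehicle log2 ratios by -0.10. Both libraries agreed in direction on 57 higher genes (0.94% of the 6064 measured in both) and 113 lower ones (1.86%), while 12 genes were called in opposite directions. Of the 108 such genes higher in cisplatin, 52.8% were also higher in vehicle, and these were 10.5% of vehicle's 541. Of the 304 lower in cisplatin, 37.2% were also lower in vehicle, or 19.4% of vehicle's 583.

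**Figure D2:**
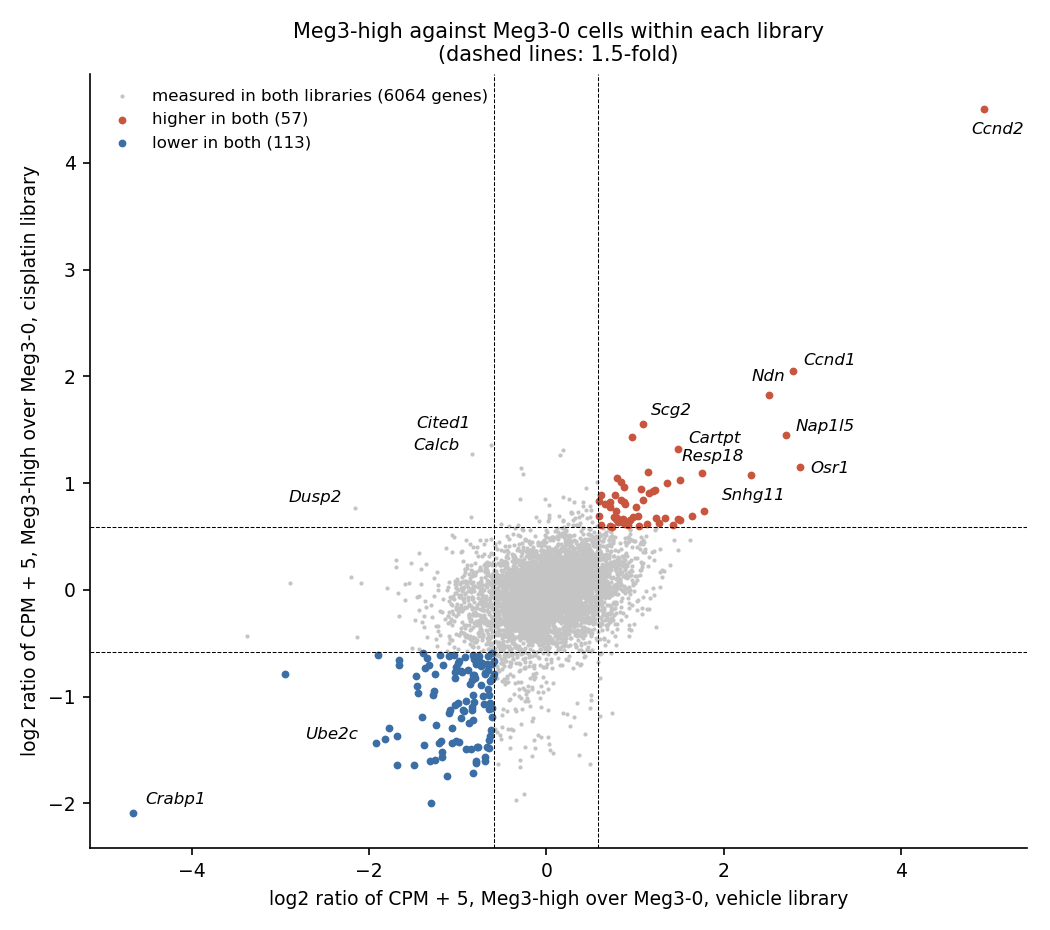
Log2 ratio of CPM plus 5 in Meg3-high over Meg3-0 cells, vehicle library on the horizontal axis and cisplatin library on the vertical axis, 1 point per gene for the 6064 genes measured in both. Red points are the 57 genes at least 1.5-fold higher in both and blue points the 113 at least 1.5-fold lower in both. Ccnd2 lies alone at the upper right (4.93 and 4.51) and Crabp1 at the lower left.

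Ccnd2, which encodes cyclin D2, was the gene with the greatest difference between Meg3-high and Meg3-0 cells in both libraries. It stood at 169.5 CPM (119 to 234) in vehicle members against 0.71 in vehicle Meg3-0 cells, and at 135 CPM (117 to 155) in cisplatin members against 1.16. The ratio of levels was 240 (137 to 432) in vehicle and 117 (72.0 to 201) in cisplatin, or log2 ratios of 4.93 and 4.51 with the pseudocount. Delta-like cells had Meg3 without it: no Ccnd2 UMI in the 18 vehicle cells and 0.77 CPM in the 748 cisplatin cells. Ccnd2 lies at chr6:127125162-127152193 on the minus strand, on another chromosome than Meg3.

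Ccnd2 RNA was found in some members only. In vehicle, 6 of the 24 members had any, with 14, 11, 7, 3, 1 and 1 UMIs, and the 4 highest of them were among the members with 30 to 45 Meg3 UMIs. In cisplatin, 66 of the 266 had at least 1 of the 207 Ccnd2 UMIs, with at most 12 in a cell, so the cisplatin value did not rest on a few cells as the vehicle value did. Members with Ccnd2 had more Meg3: median counts were 30.5 against 9.5 UMIs in vehicle and 10.5 against 7.5 in cisplatin, at median depths of 8706 against 8056 and 4921 against 5009.5 UMIs. At a common depth of 4000 UMIs, a Ccnd2 UMI was found in 22.7% of vehicle members (5 of 22, 7.82 to 45.4%) against 0.130% of Meg3-0 cells, and in 22.1% of cisplatin members (43 of 195, 16.4 to 28.5%) against 0.376%. Read from the other side, 66 of the 93 cisplatin barcodes outside the delta-like group with any Ccnd2 UMI were Meg3-high, and 6 of the 24 vehicle ones. Of the 53 cisplatin barcodes outside the delta-like group with 2 or more Ccnd2 UMIs, 47 were Meg3-high (88.7%, 77.0 to 95.7%), 4 had 1 to 3 Meg3 UMIs and 2 had none. All 14 such barcodes with 5 or more Ccnd2 UMIs were members. In vehicle 4 of 8 barcodes with 2 or more were members, and 3 of 4 with 5 or more.

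Ccnd1 was also higher, at 59.6 CPM (31.7 to 102) in vehicle members against 4.43 and at 36.5 CPM (27.6 to 47.4) in cisplatin members against 5.01. The log2 ratios were 2.77 and 2.05, and the delta-like cells of the cisplatin library stood at 3.72 CPM. The cyclins often shared a cell: Ccnd1 was found in 6 vehicle and 47 cisplatin members, either cyclin in 8 and 86, and both in 4 and 27. The third D-type cyclin, Ccnd3, varied less. By rising Meg3 count (0, 1, 2 to 3, 4 to 9, and 10 or more UMIs) it stood at 31.4, 29.7, 32.8, 38.0 and 50 CPM in cisplatin, while Ccnd2 went from 1.16 through 4.5, 10.9 and 83.9 to 206 CPM. In vehicle, Ccnd2 along the same steps was 0.71, 0, 13.4, 11.4 and 276 CPM. In cisplatin the printed Ccnd2 level thus rose at each step of Meg3. The barcodes with 1 to 3 Meg3 UMIs held 18 Ccnd2 UMIs in all, so the values under the membership threshold are coarse. Meg3 counts also set the membership, so the steps are a description. Ccnd3 falls outside the naming rule and was chosen after its values were seen.

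**Figure D3:**
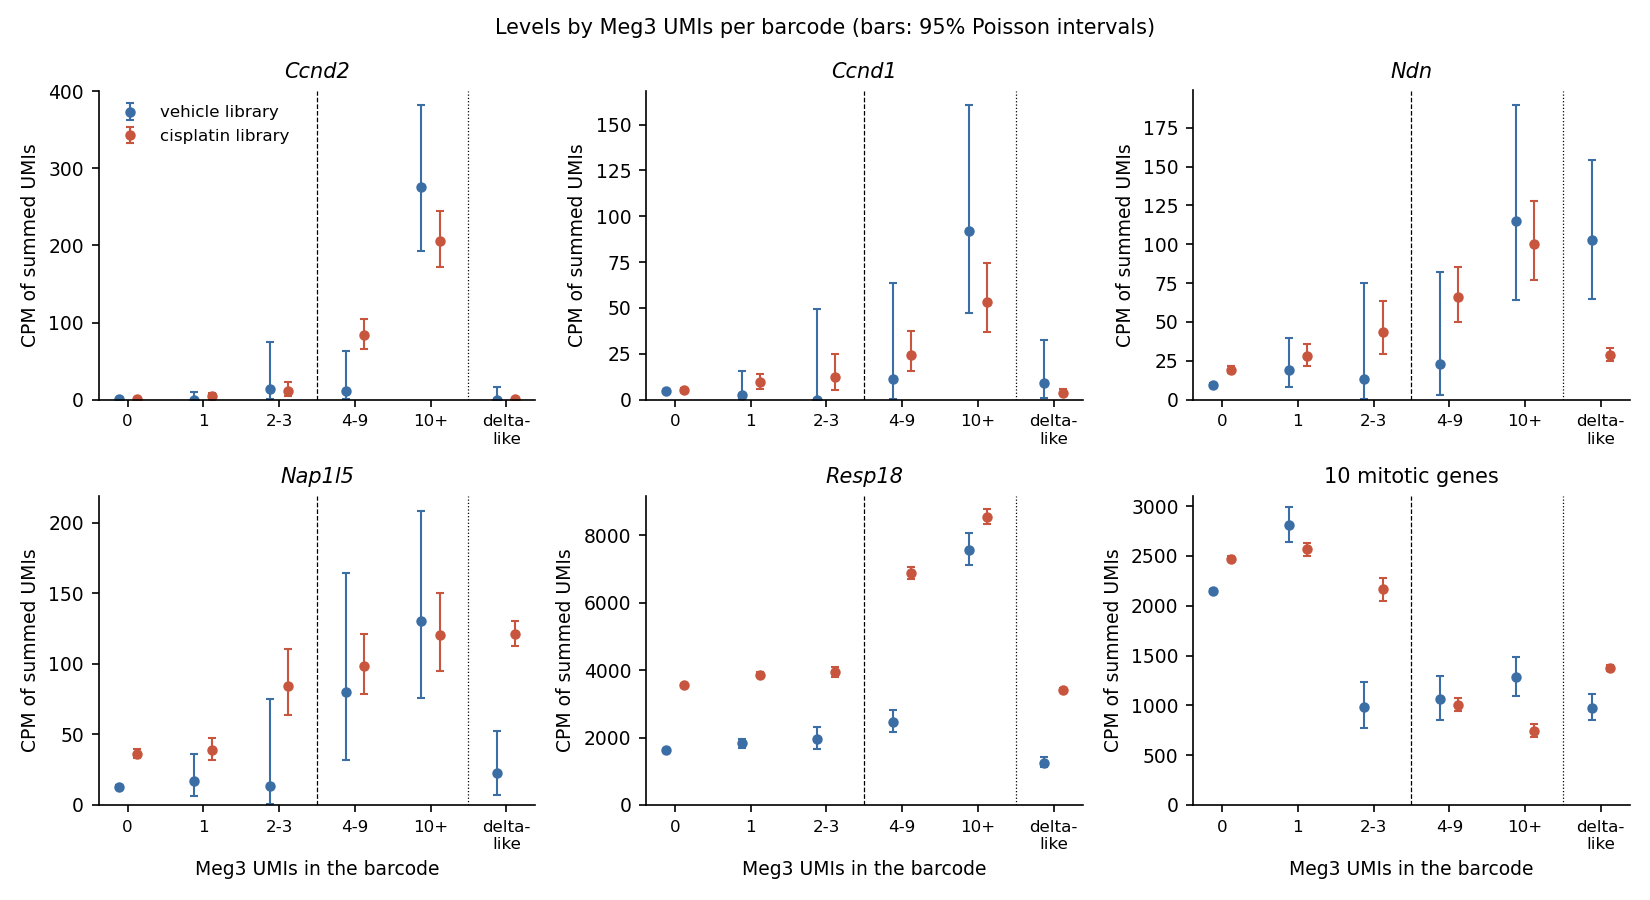
CPM of summed UMIs (vertical axes) of Ccnd2, Ccnd1, Ndn, Nap1l5, Resp18 and the sum of 10 mitotic genes, by Meg3 UMIs in the barcode (horizontal axes), with the delta-like cells at the right; vehicle in blue, cisplatin in red, bars are 95% Poisson intervals. The dashed line marks the membership threshold of 4 Meg3 UMIs. Ccnd2 reaches 276 and 206 CPM at 10 or more Meg3 UMIs and is at or under 0.77 CPM in delta-like cells.

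Of the locus itself, no gene besides Meg3 was abundant enough to be compared. Of 8 listed genes of the Dlk1-Dio3 locus, 6 were in the matrices and none passed the filter. Mirg, the maternally expressed host of a microRNA cluster, had 1 UMI in vehicle members (4.58 CPM, against 0.168 in Meg3-0 cells) and 8 UMIs in cisplatin members (5.21 against 0.386 CPM). The paternal genes Dlk1, which encodes a Notch-related transmembrane protein, and Rtl1, a retrotransposon-derived gene, had no UMI in any member, and Dlk1 had 34 UMIs in the cisplatin delta-like cells (5.27 CPM). Rian was not analysed here. Of 10 genes beside the locus 7 were measured, of which 1 was higher and 1 lower in vehicle and none in cisplatin.

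Other imprinted genes were on the higher side. Of 17 measured in vehicle, 4 were higher and none lower, with a median log2 ratio of 0.36 against 0.04 for all genes. Of 16 in cisplatin, 5 were higher and none lower, with a median of 0.35 against -0.03. Over all measured genes, 12.2% were higher in vehicle and 2.2% in cisplatin. Ndn, the paternally expressed necdin gene of the Prader-Willi region (chr7:62346569-62350262), stood at 77.9 CPM in vehicle members against 9.61 and at 80.2 in cisplatin members against 19.1, log2 ratios of 2.50 and 1.82. Nap1l5, a paternally expressed intronless gene (chr6:58905233-58907076), stood at 110 against 12.7 and 108 against 36.2 CPM, log2 ratios of 2.70 and 1.45. Those 2 were the ones higher in both libraries. At 4000 UMIs per cell, Ndn was found in 27.3% of vehicle members against 3.44% of Meg3-0 cells, and in 25.1% against 7.85% in cisplatin. The delta-like cells had Nap1l5 at 22.3 and 121 CPM and Ndn at 103 and 28.8 CPM in vehicle and cisplatin. Ndn was thus higher in vehicle delta-like cells than in vehicle members. Nap1l5 was slightly higher in cisplatin delta-like cells than in cisplatin members. In the other library each gene was higher in members.

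The remaining imprinted genes differed less or in 1 library only. Igf2, the fetal growth factor, stood at 229 against 189 CPM in vehicle and at 42.4 against 23.9 in cisplatin, and was called higher in cisplatin only. Mest stood at 101 against 72.5 and at 79.5 against 45.2, and Snrpn at 147 against 103 and at 204 against 125 CPM. The cisplatin log2 ratio of Mest changed sign when barcodes with 1 or more delta-like UMIs were dropped. Peg3, Nnat and the CDK inhibitor gene Cdkn1c were under 1.5-fold in both: Cdkn1c was at 41.2 against 58.7 and 60.6 against 89.7 CPM. Igf2 was also among the 8 genes lowest in cisplatin members relative to vehicle members, with a log2 ratio of -2.31, and the Meg3-0 cells showed -2.75 between the same libraries.

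A few neuroendocrine genes, led by the granule gene Resp18, were higher in members of both libraries, and most of the list was in neither direction. Of 25 neuroendocrine genes measured, 8 were higher in vehicle and 6 in cisplatin and none was lower in either. Over all measured genes, 12.2% were higher in vehicle and 2.2% in cisplatin. The median log2 ratio of the list was 0.46 in vehicle, against 0.04 for all genes, and 0.17 in cisplatin, against -0.03. Resp18, Pcsk1n, Scg5, Syp and Pcsk2 were the 5 called higher in both. Resp18, which encodes a granule protein of endocrine cells, was the most abundant, at 5521 CPM against 1634 in vehicle and 7580 against 3547 in cisplatin, with UMIs in all 24 vehicle members. Its level by Meg3 count was 3547, 3865, 3939, 6881 and 8557 CPM in cisplatin and 1634, 1824, 1959, 2473 and 7569 in vehicle, and the delta-like cells of cisplatin were at 3412. Resp18 was thus higher in Meg3-high cells than in either comparison group. Pcsk1n, an inhibitor of prohormone convertases, stood at 683 against 304 and 849 against 451 CPM. Scg5, a chaperone of the convertase encoded by Pcsk2, stood at 518 against 286 and 703 against 389, and Syp, synaptophysin, at 147 against 78.4 and 154 against 96.0 CPM. Pcsk2 itself was at 110 against 53.8 and 198 against 70.5 CPM, but its call rested on members near the delta-like threshold. Members with no UMI of the delta-like genes had Pcsk2 at 72.5 CPM in vehicle and 76.3 in cisplatin, and with barcodes dropped at 1 such UMI the log2 ratios were 0.41 and 0.22. In vehicle the Pcsk2 ratio was -0.93 in thinned and -1.65 in non-mitotic cells. At 8000 or more UMIs the Pcsk1n log2 ratio in cisplatin was 0.53, under 1.5-fold. Chga, chromogranin A, was under 1.5-fold in both, at 504 against 355 and 381 against 313 CPM.

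Other genes among the 12 highest in both libraries fell into smaller groups. Osr1, a zinc finger transcription factor, stood at 68.7 CPM against 5.14 in vehicle and 76.9 against 31.8 in cisplatin, with 2.63 in cisplatin delta-like cells. Mcoln3, a cation channel of endosomes and lysosomes, stood at 55.0 against 22.0 and 56.7 against 23.8 CPM, with 0.93 in those delta-like cells. Snhg11, a long non-coding RNA, was at 179 against 32.1 and 61.3 against 26.4 CPM, and 23 of its 39 vehicle UMIs were in 1 cell. In cisplatin barcodes with 8000 or more UMIs, the log2 ratio was 0.25 for Osr1 and -0.01 for Snhg11. Tceal3 was at 73.3 against 22.7 and 65.2 against 29.3 CPM.

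Cartpt, the precursor of the CART neuropeptides, stood at 137 against 46.0 CPM in vehicle and 186 against 71.5 in cisplatin, with 9.76 in cisplatin delta-like cells. The vehicle value rested on 1 cell with 21 of the 30 UMIs, without which the log2 ratio was -0.08 in place of 1.48. In cisplatin 1 cell held 71 of 285. Scg2, secretogranin II, stood at 312 against 144 and 602 against 201 CPM, and 36 of its 68 vehicle UMIs were in 1 cell, without which the log2 ratio was 0.10 in place of 1.09. Clu, which encodes the secreted chaperone clusterin, stood at 82.5 against 29.1 and 82.8 against 38.9 CPM, and its cisplatin log2 ratio of 1.00 became 0.03 when barcodes with any UMI of the delta-like genes were dropped. For Cartpt and Scg2 in vehicle, and Clu in cisplatin, the call therefore rested on a few cells or on the delta-like threshold.

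The lower genes were led by Crabp1, which encodes a cytosolic retinoic acid binding protein (chr9:54764748-54773110, plus strand). No vehicle member had a Crabp1 UMI, which allows up to 13.7 CPM, against 121 CPM in Meg3-0 cells, so it was at least 8.83-fold lower. In cisplatin it stood at 14.3 against 77.1 CPM, a log2 ratio of -2.09, with UMIs in 15 of 266 members. At 4000 UMIs per cell it was found in 0 of 22 vehicle members and 23.6% of Meg3-0 cells, and in 5.13% and 15.6% in cisplatin. Tmem54, a transmembrane protein gene, stood at 18.3 against 77.4 and 16.3 against 51.2 CPM.

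Most of the other genes among the 12 lowest act in mitosis. Cenpa, the centromeric histone variant, stood at 55.0 CPM against 188 in vehicle and 72.4 against 236 in cisplatin. Ube2c, a ubiquitin-conjugating enzyme of the anaphase-promoting complex, stood at 105 against 412 and 213 against 584 CPM. Nek2, Pttg1, Cdc25c, Dlgap5, Tacc3, Ckap2 and Knstrn had log2 ratios between -1.25 and -1.77 in vehicle and between -1.26 and -1.64 in cisplatin. Of the listed G2 and mitosis genes, 11 of 19 were lower in vehicle (median log2 ratio -0.70) and 20 of 20 in cisplatin (-1.43), and none was higher; 11 were lower in both. Of the 19 measured G1/S and replication genes, 5 were lower in vehicle (-0.21) and 11 in cisplatin (-0.63). None was higher, and 2 were lower in both, Ccne1 among them. Over all measured genes, 8.89% were lower in vehicle and 5.04% in cisplatin.

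In cisplatin, a smaller share of Meg3-high than of Meg3-0 cells carried mitotic RNA, though many members did. At 4000 UMIs per cell, 31.8% of vehicle members (7 of 22, 13.9 to 54.9%) had 2 or more UMIs of 10 mitotic genes against 43.2% of Meg3-0 cells, a difference inside the counting interval of the members. In cisplatin the shares were 31.3% (24.8 to 38.3%) against 50.8% (48.6 to 52.9%), and 43.2% in delta-like cells. Without thinning they were 50% against 63.6% and 34.2% against 60.6%, at member median depths of 8056 and 4996 UMIs and Meg3-0 median depths of 8707.5 and 6553. For 4 or more G1/S UMIs the thinned shares were 63.6% against 69.7% in vehicle and 56.9% against 73.8% in cisplatin. The summed level of the 10 mitotic genes by Meg3 count was 2473, 2566, 2165, 1003 and 746 CPM in cisplatin and 2149, 2810, 980, 1060 and 1280 CPM in vehicle. In vehicle members 146 of the 260 UMIs of these genes were in 1 cell. Members with Ccnd2 had mitotic RNA as well: in cisplatin the sum was 1218 CPM in the 66 members with a Ccnd2 UMI and 788 in the 200 without, whereas in vehicle it was 128 CPM in the 6 with and 1549 in the 18 without.

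Cell cycle inhibitor genes had no common direction beside the lower mitotic RNA. Of the p53 targets and inhibitors, 3 of 20 were higher and 3 lower in vehicle, 1 of 21 higher and 1 lower in cisplatin, and none was called in both. Over all measured genes, 12.2% were higher and 8.89% lower in vehicle, and 2.2% and 5.04% in cisplatin. Cdkn1a, which encodes p21, stood at 252 CPM in vehicle members against 433 and at 442 in cisplatin members against 546. Cdkn2a was at 77.9 against 206 and 69.1 against 95.3 CPM. Rprm, reprimo, a p53-induced gene, had 6 UMIs in vehicle members (27.5 CPM against 0.97) and stood at 117 against 61.8 CPM in cisplatin. Cdkn2d was at 202 against 207 and 127 against 251 CPM.

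The Notch target Hes1 was lower in both libraries, at 13.7 CPM (3 UMIs) against 32.0 in vehicle, a ratio of 0.429 with an interval of 0.0883 to 1.26, and at 64.5 against 106 in cisplatin. It was the sole gene of the Notch list called in both. Of the non-neuroendocrine and mesenchymal genes, 2 of 6 were higher and 2 lower in vehicle, and 4 of 8 higher and 1 lower in cisplatin, with S100a11 higher and Tagln2 lower in both. The S100a11 call did not hold in every setting: its vehicle log2 ratio was 0.14 in thinned and -0.37 in non-mitotic cells, and its cisplatin ratio was 0.35 at 8000 or more UMIs. Of 15 epithelial genes, none was higher and 1 lower in vehicle, and 1 was higher and 3 lower in cisplatin. For these lists, the shares over all measured genes were 12.2% higher and 8.89% lower in vehicle, and 2.2% and 5.04% in cisplatin. Of the listed PKA and CREB targets, 2 of 8 were higher and 1 lower in vehicle, and 1 of 10 was higher and 0 lower in cisplatin. Sik1 was the 1 called higher in both. The median log2 ratios of that list were 0.02 and 0.24, against 0.04 and -0.03 for all genes. The lists of stress, interferon, antigen presentation, hypoxia, apoptosis and platinum handling genes had at most 2 genes called in a direction in either library, as the plot of list medians shows.

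**Figure D4:**
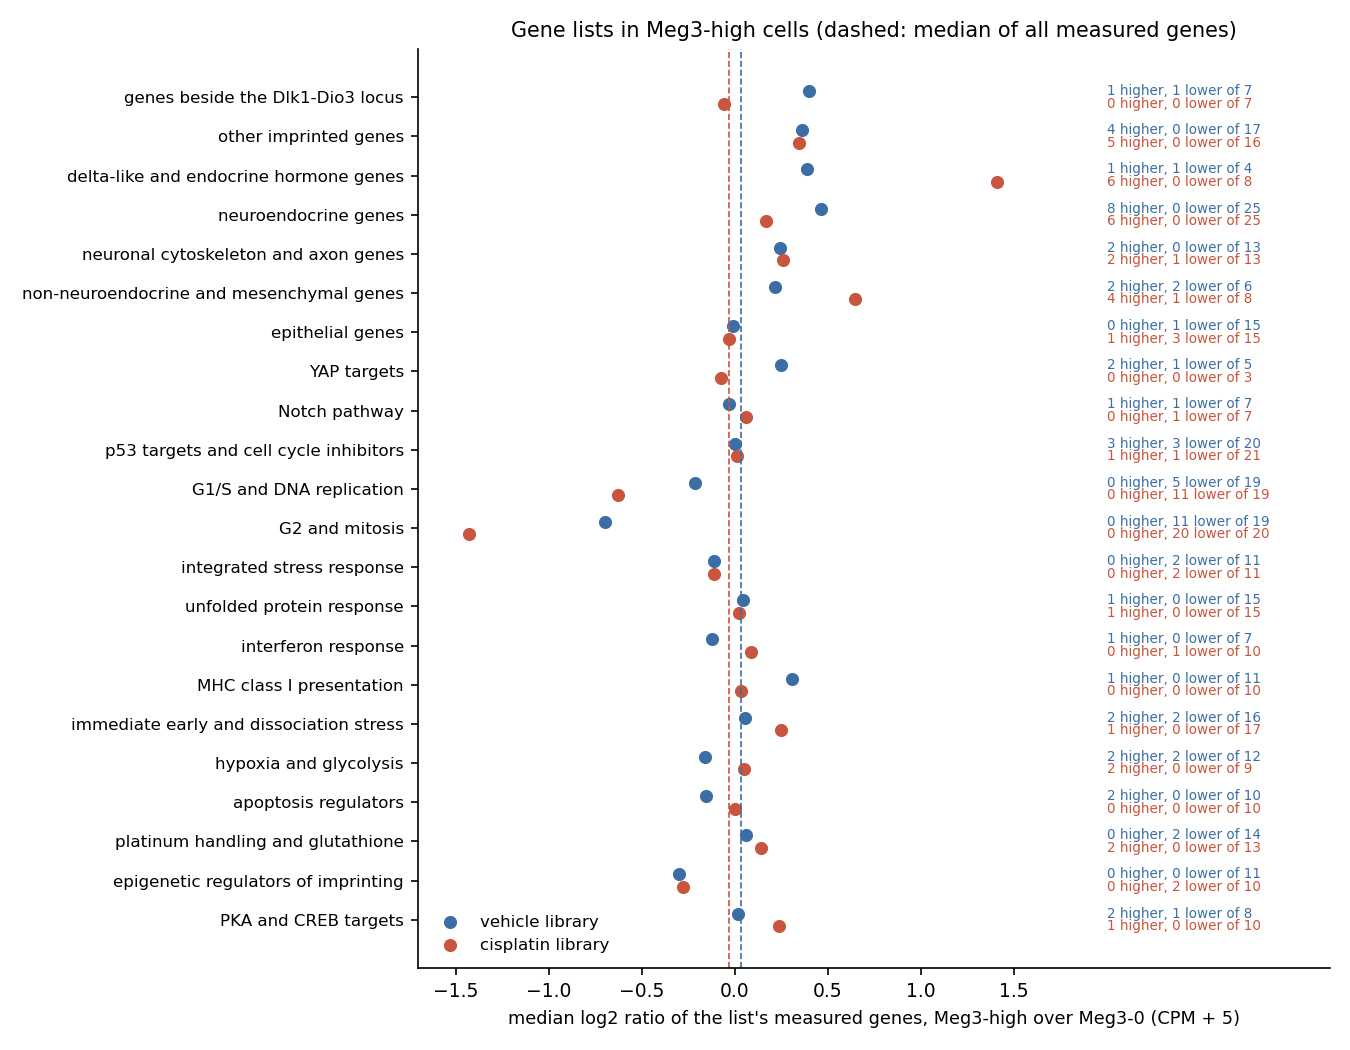
Median log2 ratio of CPM plus 5, Meg3-high over Meg3-0 cells (horizontal axis), for each gene list with measured genes, vehicle in blue and cisplatin in red, with the numbers of genes higher and lower at the right. Dashed lines are the medians of all measured genes (0.04 and -0.03). The list of G2 and mitosis genes lies farthest to the left (-0.70 and -1.43) and, in cisplatin, the list of delta-like and endocrine hormone genes farthest to the right (1.41).

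Hormone genes of the delta-like cells were higher in cisplatin members, and the level depended on the members near the delta-like threshold. In cisplatin 6 of 8 measured genes of that list were higher (median log2 ratio 1.41) and in vehicle 1 of 4, with 1 lower. Over all measured genes, 2.2% were higher in cisplatin and 12.2% in vehicle. Sst, somatostatin, stood at 118 CPM in cisplatin members against 20.7 in Meg3-0 cells, Pnoc, the nociceptin precursor, at 96.5 against 17.9, and Ceacam10 at 145 against 44.4. In the 163 members with no UMI of the 5 delta-like genes Sst stood at 35.2 CPM, in the 103 with 1 to 4 at 221, and in the delta-like cells at 965. For Scg2 the same 3 values were 320, 953 and 7488 CPM, for Pcsk2 76.3, 351 and 2999, and for Calcb 24.6, 202 and 1062. These 4 genes thus graded toward the delta-like cells with the delta-like UMIs of the member. Ccnd2 ran the other way, at 171, 89.5 and 0.77 CPM.

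Members differed from delta-like cells in the ratio of these genes to Meg3, but the choice of cells shapes this ratio. Members had to pass a Meg3 threshold and hold few delta-like UMIs. Delta-like cells were chosen by delta-like genes, with no Meg3 threshold. Low ratios of the hormone genes to Meg3 in members are thus favoured by the rule, and the ratios are a description and no test. Per 100 Meg3 UMIs, cisplatin members held 6.34 UMIs of Sst, 32.3 of Scg2, 7.81 of Ceacam10 and 10.6 of Pcsk2, and delta-like cells held 50, 388, 85.1 and 155. For Ccnd2 the values were 7.25 and 0.0401, and for Ndn 4.31 and 1.49. In vehicle Ndn went the other way, at 4.11 in members and 6.95 in delta-like cells. Sst, Scg2, Ceacam10, Pcsk2 and Ccnd2 had the same direction in vehicle as in cisplatin. Few members carried the Sst RNA: 57 of its 181 UMIs in cisplatin members were in 1 cell and 121 in 3 cells, and at 4000 UMIs per cell Sst was found in 7.18% of members, 7.62% of Meg3-0 cells and 47.3% of delta-like cells. Within cisplatin members, the 66 with Ccnd2 had Sst at 18.2 CPM and Scg2 at 221, and the 200 without had 151 and 729.

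The members with Ccnd2 were also the ones with more Osr1, Cartpt, Ccnd1 and Resp18. In cisplatin Osr1 stood at 156 CPM in members with a Ccnd2 UMI and 50.4 in those without, Cartpt at 346 and 132, Ccnd1 at 88.5 and 19.1, and Resp18 at 10109 and 6735. Ndn was at 109 and 70.4, while Nap1l5 was at 115 and 105 CPM. In vehicle the 6 members with Ccnd2 had Resp18 at 11988 CPM against 3348 in the 18 without, and Ndn at 200 against 36.7.

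Between the libraries, members of the cisplatin tumours had at least 1.5-fold more RNA than vehicle members for 600 of 5197 genes (11.5%) and less for 887 (17.1%). With TMM factors the split became 1244 higher and 425 lower, and with median-of-ratios factors 1229 and 431, because those scalings shift all log2 ratios by 0.28, so the share of higher genes has no fixed direction. Among the 8 highest, Dusp2, a phosphatase gene for MAP kinases, stood at 9.16 CPM (2 UMIs) in vehicle and 99.1 in cisplatin members, log2 2.88, while Meg3-0 cells differed by -0.04. Hist1h2bc stood at 55.0 and 366 CPM (2.63, against 0.47 in Meg3-0 cells), and the club cell secretory gene Scgb1a1 at 101 and 526 CPM (2.33, against -0.63). The kallikrein gene Klk1 stood at 50.4 and 269 CPM (2.30), but the Meg3-0 cells differed nearly as much (2.04). The other high genes included Sfn (2.75, against 0.78), the heat shock gene Hspa1a (2.37, against 1.24) and Gpx3 (2.25, against 1.39). The summed club cell markers were at 206 and 606 CPM in the same members, and their part in these differences was not tested.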

How the data were processed

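Single-cell libraries were made on the 10x Genomics platform. The deposited matrices hold raw UMI counts for 28692 genes, made with Cell Ranger 2.0.2 on mm10 per the submitters' processing notes. From these counts, cells were chosen by the thresholds given in the text, which, like the gene lists, were set with earlier results of these data known. Counts were summed over the cells of a group, since cells are not replicates, and no test was run with 1 library per group. CPM, the 5 CPM pseudocount, the 50 UMI and 20 CPM filters and the 1.5-fold call were applied with Python 3.11.15, numpy 2.4.6 and scipy 1.17.1. TMM (edgeR 4.0.16) and median-of-ratios (DESeq2 1.42.0, R 4.3.3) gave alternative scalings only. No doublet caller was run and no doublets were removed. Genes were named by rank: the 12 highest and lowest by the smaller of the 2 libraries' ratios, the 8 highest and lowest per comparison, up to 4 per list, and a fixed set of names, not all of them used, and a few are not reported here. Coordinates are GENCODE M21 and promoters RefSeq, both GRCm38. Alternatives covered Meg3 and delta-like thresholds, depth, thinning, filters, pseudocount, scaling and leaving out single cells.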

Additional observations from a re-analysis of the deposited data

Results flagged for a closer look

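For 3 named genes the Meg3-high cells lay more than 1.5-fold from the Meg3-0 cells in opposite directions in the libraries; the difference between libraries was not tested. Dusp2 had a log2 ratio of -2.16 in vehicle and 0.77 in cisplatin, and its vehicle value rests on 2 UMIs in 1 cell. Cited1, a transcriptional coactivator gene, had -0.62 and 1.36, with 6 vehicle UMIs in 5 cells. Its cisplatin level was 44.6 CPM in members without a UMI of the delta-like genes, 235 CPM in those with 1 to 4 and 47.4 CPM in Meg3-0 cells. Calcb, which encodes a CGRP peptide, had -0.84 and 1.27, with 3 vehicle UMIs in 2 cells.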

How the results depend on the processing

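No paired analysis was possible because each group is 1 library and the cells carry no pairing. Treatment, animal and library cannot be told apart, and the 24 vehicle members limit every vehicle value. Of 768 log2 ratios of the 24 genes highest or lowest in both libraries, under 16 alternatives, 758 kept their sign and 739 stayed past 1.5-fold. These genes were picked for their large ratios in the same data, which favours such counts. The alternatives with a mean of at least 50 or 5 CPM change the gene filter and leave every ratio as it was. The counts are therefore a description and no test. The alternative without the member richest in a gene was chosen after seeing the data. The causes of the differences below were not tested, apart from those that follow from fewer genes or cells.

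These log2 ratios of Meg3-high over Meg3-0 cells changed sign. With barcodes dropped at 1 or more delta-like UMIs, in cisplatin: Calcb -0.46, Cited1 -0.13 and Mest -0.16. At 8000 or more UMIs, in cisplatin: Calcb -0.43, Dusp2 -0.14, Snhg11 -0.0064 and Sst -0.010. Among cells with 0 or 1 mitotic UMIs, in vehicle: Cartpt -0.76, Cdkn1a 0.038, Ckap2 0.15, Pcsk2 -1.65, S100a11 -0.37 and Scg2 -1.38; in cisplatin: Cdc25c 0.36, Dlgap5 0.30, Knstrn 0.032 and Ube2c 0.028, where the choice of cells itself uses mitotic genes. With cells thinned to 4000 UMIs, in vehicle: Pcsk2 -0.93 and Scg2 -0.64. Without the richest member, in vehicle: Cartpt -0.075.

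Of 140 alternative values of counts and shares, 42 moved. The cisplatin share of members was 8.67% at 3 or more and 5.88% at 6 or more Meg3 UMIs. At a 2-fold call, 169 genes were higher and 149 lower in vehicle, 32 and 114 in cisplatin, 11 and 24 in both, and 194 and 242 for cisplatin over vehicle members. With a mean of at least 50 CPM these were 293 and 206 in vehicle, 61 and 139 in cisplatin, 26 and 45 in both, and 334 higher for cisplatin over vehicle. With a mean of at least 5 CPM they were 1546 and 1357, 291 and 570, and 107 and 186. At 8000 or more UMIs, 299 genes were higher in cisplatin, and 316 higher and 251 lower for cisplatin over vehicle. After thinning, 1322 were higher and 1289 lower in vehicle, 181 lower in both and 450 lower for cisplatin over vehicle. Among non-mitotic cells, 1346 were higher and 1078 lower in vehicle, 202 lower in cisplatin, 61 lower in both and 440 lower for cisplatin over vehicle. Genes lower in both numbered 187 at 6 or more Meg3 UMIs and 179 with the stricter delta-like drop, which left 486 lower for cisplatin over vehicle. For that comparison TMM gave 1244 higher and 425 lower, and median-of-ratios 1229 and 431.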

Other observations

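Median mitochondrial shares were 3.19% in vehicle and 3.86% in cisplatin members, and 2.70% and 3.21% in Meg3-0 cells.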
